A study of Mus musculus with 16 samples.

Results

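Levels of 5 hepatocyte genes, Arg1, Uox, Car3, Mup20 and Alb, were followed in sorted mouse hepatic stellate cells (HSCs). The genes were taken by symbol, because their level was much higher in lineage label-positive than in label-negative cells or because of a known role in hepatocytes. All 5 have a row among the 5716 rows of the quiescent cell table, 1 of them (Car3) has a row in the GFP-intermediate table, and none has a row in the GFP-high table. In the quiescent table they carry the identifiers ENSMUSG00000019987 (Arg1, on chromosome 10), ENSMUSG00000028186 (Uox, chromosome 3), ENSMUSG00000027559 (Car3, chromosome 3), ENSMUSG00000078672 (Mup20, chromosome 4) and ENSMUSG00000029368 (Alb, chromosome 5). Across the 3 tables there were 6193 distinct rows. Because the contrast between label-positive and label-negative cells helped to choose the genes, their values in it are given as a description, without a test.

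RNA was sequenced from 16 samples of C57/Bl6 mice. Quiescent HSCs (qHSCs) came from 3 uninjured WT1CreERT2;Ai14 animals, in which tamoxifen given at E10.5 switched on a red fluorescent label (RFP) in cells expressing WT1 and in their progeny, and the RFP-positive and RFP-negative cells of each animal formed the 2 groups of 3 samples. Activated HSCs (aHSCs) came from 6 animals injured with carbon tetrachloride for 8 weeks, all carrying PDGFRbCre, the Ai14 reporter and a GFP allele of WT1. The other WT1 allele was wild type in controls (WT1_+_GFP) and floxed in deleted animals (WT1_fl_GFP), so that controls too had 1 WT1 allele replaced by GFP. RFP-positive aHSCs were sorted into GFP-high cells, with 3 control and 3 WT1-deleted samples, and GFP-intermediate cells, labelled GFP low, with 2 and 2, of which 1 control sample was a pool of 2 animals. The Cre is driven by the Pdgfrb promoter, which is active in stellate cells and other perivascular cells, and the label at E10.5 marks only the cells expressing WT1 at that time. The sample labels give all animals as male, whereas the methods of the study give female animals for this isolation of qHSCs; adult age is given by the labels only as after weaning for qHSCs and as adult for aHSCs, while the methods of the study give an age range in weeks for animals at the start of injury.

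Hepatocytes clear ammonia through the urea cycle, in which arginase 1 (Arg1) splits arginine into urea and ornithine. They also break down purines, and in mice the peroxisomal enzyme urate oxidase (Uox) takes uric acid one step further towards allantoin. Albumin (Alb), the main plasma protein, and the major urinary proteins, small pheromone carriers that include Mup20 (darcin, higher in male mice), are secreted by hepatocytes. Carbonic anhydrase 3 (Car3) is a cytosolic protein of liver, fat and slow muscle, so it belongs neither to nitrogen breakdown nor to the secreted proteins, although its place among hepatocyte genes is usual. Arg1 is made in alternatively activated macrophages as well.

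The tables hold 1 FPKM (sequenced fragments relative to transcript length and to the size of the library) for each group, in which the authors combined the replicates. No value per sample was used, so the spread between animals and the depth are unknown, and neither the order of the genes within a group nor a ratio between groups has an error. The rows with a gene name are those that the authors called different, so a gene without a row may be unchanged, too low or absent. Their number in quiescent cells equals that in the paper. For both WT1 deletion comparisons the paper reports fewer genes in total than there are rows, and the reason is not known. Because FPKM accounts for transcript length, levels of different genes in 1 group can be set side by side. In bulk samples of this kind, fewer cells of a type and less RNA per cell cannot be told apart.

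The stretch around the start of transcription is shown for Uox and Alb, the genes among the 5 that lay far apart in their ratio between the fractions and for which a promoter sequence was matched (2 of 5 genes; Arg1, Car3 and Mup20 had no entry). The sequences are those of RefSeq on GRCm38.p6, plus strand, and run from 250 bases before to 50 after the start site, 5′ to 3′. Uox lies at chr3:146596899-146597198 and Alb at chr5:90460620-90460919. Capitals mark matches, on either strand, to TTGCNNAA (the core bound by C/EBP factors), GTTAAT (a part of the palindromic HNF1 site), CAAAGT (a part of the HNF4 site), TATAAA and CCAAT.
Uox: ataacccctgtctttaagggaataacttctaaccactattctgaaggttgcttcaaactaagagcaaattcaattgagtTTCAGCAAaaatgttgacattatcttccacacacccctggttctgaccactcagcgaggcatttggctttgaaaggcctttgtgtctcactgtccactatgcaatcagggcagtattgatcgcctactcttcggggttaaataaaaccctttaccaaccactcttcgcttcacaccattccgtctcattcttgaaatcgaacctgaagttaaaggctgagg
Alb: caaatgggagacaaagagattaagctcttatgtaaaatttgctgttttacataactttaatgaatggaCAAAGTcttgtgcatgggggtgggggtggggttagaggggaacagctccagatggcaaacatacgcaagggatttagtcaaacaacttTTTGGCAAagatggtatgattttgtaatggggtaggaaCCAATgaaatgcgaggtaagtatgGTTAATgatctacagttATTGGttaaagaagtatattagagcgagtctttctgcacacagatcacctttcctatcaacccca

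The Uox window held a single match, to TTGCNNAA on the minus strand, beginning 171 bases before the start site. The Alb window held 5 matches. They were CAAAGT at 182 bases, TTGCNNAA on the minus strand at 94 bases, CCAAT at 56 bases, GTTAAT at 32 bases and CCAAT on the minus strand at 15 bases before the start site. Of 32851 mouse promoter windows of this length, 10.8% held TTGCNNAA, 7.10% GTTAAT, 14.4% CAAAGT, 13.6% TATAAA and 37.4% CCAAT. Among 98 windows of 84 genes with a row from the 6 hepatocyte lists described below, 22.4% held TTGCNNAA, 23.5% GTTAAT, 27.6% CAAAGT, 26.5% TATAAA and 51.0% CCAAT. No matches overlapped in either window shown. These are matches of letters and not evidence of binding.

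In quiescent cells all 5 genes were higher in the label-positive fraction, 4 of them by 25.1 to 33.1 times and Alb by 2.82 times. Of all rows 50.4% were higher in label-positive cells, 37.7% by at least 2-fold and 1.42% by at least 16-fold. Because the genes were chosen on this contrast, nothing is read from their own count.

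Mup20 had a group FPKM of 2.61 in label-negative cells and 86.4 in label-positive ones, a log2 ratio of 5.05. Among rows higher in label-positive cells that was the widest difference of the table on log2(FPKM + 1), and rank 13 of 5716 on the plain log2 ratio, where genes listed at 0 in label-negative cells come first. Arg1 stood at 2.98 and 84.8, with a log2 ratio of 4.83 (rank 17). Mup20 and Arg1 were thus nearly level in both fractions, although they differ in product and pathway.

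Uox, with 4.34 in label-negative cells and 120 in label-positive ones, had a log2 ratio of 4.79 and rank 18. Car3 was the most abundant of the 4, with 13.4 and 337, a log2 ratio of 4.65 and rank 25. These 4 genes took the first 4 ranks on log2(FPKM + 1), and the next gene, just outside, was Fabp1 (liver fatty acid binding protein) with 24.1 and 478. It was followed by Cdo1 (cysteine dioxygenase), with 7.10 and 148.

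Alb was taken for its known role and not for a large ratio. It had a group FPKM of 107 in label-negative cells and 302 in label-positive ones, a log2 ratio of 1.50 and rank 947. In label-negative cells it was rank 433 by level, against ranks between 2405 and 4042 for the other members. In label-positive cells Car3 (rank 136) and Alb (rank 151) were close, followed by Uox (445), Mup20 (612) and Arg1 (628).

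**Figure D1:**
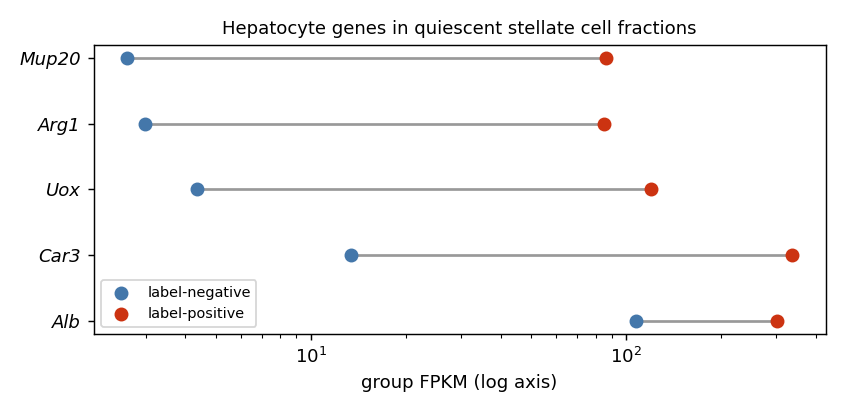
Group FPKM (log axis) of the 5 genes in label-negative (blue) and label-positive (red) qHSCs, 1 value for each group with no error. The lines of Mup20, Arg1, Uox and Car3 are about equally long, from 2.61 to 13.4 up to 84.8 to 337, while the line of Alb runs only from 107 to 302.

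The order of the genes differed between the fractions. Car3, Uox, Arg1 and Mup20 were chosen on a large ratio and Alb was not, so their rise against Alb follows from that choice. It is given as a description. In label-negative cells the order was Alb, Car3, Uox, Arg1 and Mup20, and Car3 stood at 12.5% of the Alb level, Uox at 4.05%, Arg1 at 2.78% and Mup20 at 2.44%. In label-positive cells Car3 stood at 111% of the Alb level, Uox at 39.7%, Mup20 at 28.6% and Arg1 at 28.1%. Without values per sample it cannot be said which neighbours in these orders differ beyond their spread.

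The 3 rows nearest to each gene, taken by distance on log2 FPKM of both fractions over the 5584 rows above 0 in both, and so from the same values as the ratios, are given as a description. Arg1 and Mup20 were nearest to each other (distance 0.19), followed for both by Ttc36 and Akr1c6. Akr1c6, an aldo-keto reductase of liver, was nearest to Uox (0.49), with 4.32 in label-negative cells and 85.4 in label-positive ones. Car3 had no close neighbour, and its nearest rows included Fabp1 (0.98) and Gsta3 (1.05). Nearest to Alb were Calcrl, a receptor component abundant in endothelium (distance 0.02, with 108 and 299), Tmem106a (0.07) and Elk3 (0.15).

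**Figure D2:**
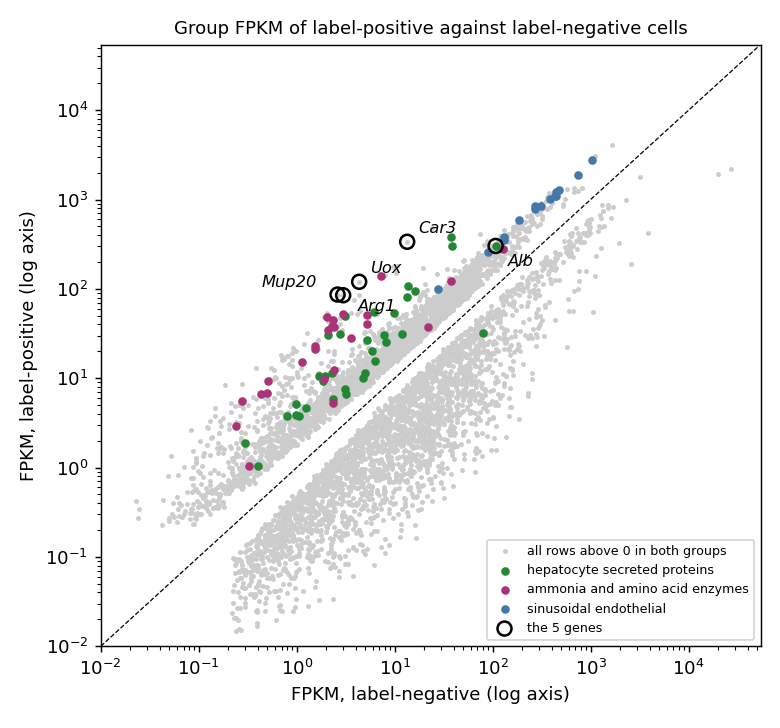
Group FPKM in label-positive against label-negative qHSCs (both axes logarithmic) for all rows above 0 in both groups (grey), with genes of 3 lists in colour and the 5 genes circled. The dashed line marks equal levels, and the gap along it is empty because the rows are those called different. Alb lies on the band of sinusoidal endothelial genes, with a log2 ratio of 1.50 beside 1.28 to 1.86. That band is not particular to endothelium. Of the 33 other secreted protein genes with a row, 14 had a log2 ratio between 1 and 2, and 37.7% of all rows had at least 1. The other members, chosen on this ratio, lie above that band at 4.65 to 5.05.

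Every urea cycle gene with a row was higher in label-positive cells, 8 of the 9 listed, with a median log2 ratio of 2.27, or 2.24 without Arg1. The median over all rows, which are only those called different, was 0.64. With 2883 rows higher and 2833 lower in label-positive cells, that value lies among the smallest ratios of the higher rows. It is therefore a low mark for any list of higher rows. The steps differed widely. Nags, which makes the activator of the first step, had a group FPKM of 0.146 in label-negative cells and 3.81 in label-positive ones. Cps1, which fixes ammonia as carbamoyl phosphate, had 1.48 and 7.23, and Otc, which joins that product to ornithine, had 1.28 and 31.7.

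The cytosolic steps before arginase started from a higher level. Ass1, which forms argininosuccinate, had 19.3 and 91.3, and Asl, which cleaves it to arginine, had 17.3 and 44.1. Their log2 ratios, 2.24 and 1.35, were below the 4.83 of Arg1, the 4.63 of Otc and the 4.70 of Nags. The mitochondrial carriers Slc25a15 (ornithine) and Slc25a13 (aspartate and glutamate) had 2.66 and 12.6, and 3.32 and 10.4. In label-negative cells Arg1 lay below Ass1 and Asl, and in label-positive cells it was close to Ass1 and above Asl.

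Among 32 other enzymes of ammonia and amino acid breakdown, 25 had a row and all 25 were above their label-negative level, with a median log2 ratio of 3.77 and a range of 0.77 to 4.58. Tat, which starts the breakdown of tyrosine, had 2.02 in label-negative cells and 48.5 in label-positive ones. Gnmt, a glycine methyltransferase, had 7.32 and 138, and Tdo2, the first enzyme of tryptophan breakdown, had 2.09 and 35.0. Glul, the glutamine synthetase of pericentral hepatocytes and also of other cells, was the most abundant of the list, with 127 and 276 and a log2 ratio of 1.12. Arg2, the mitochondrial arginase, had no row.

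Purine breakdown was split along its reaction order. The last steps, which turn uric acid into allantoin, were far higher in label-positive cells. Uox was accompanied by Urah, which acts on its product, with 0.925 and 21.6 (log2 ratio 4.54), and by Urad, the following step, with 0.318 and 5.05 (3.99). Xdh, which makes uric acid, had 36.3 and 63.3, a log2 ratio of 0.80, and the earlier enzymes Pnp (61.5 and 122) and Ada (26.4 and 57.2) had log2 ratios of 0.98 and 1.11. Nt5e, which makes nucleosides at the cell surface, and Gda, which deaminates guanine, went the other way, with 7.60 and 0.914, and 29.4 and 5.63. In all 8 of the 11 listed genes had a row, 6 higher and 2 lower in label-positive cells, and without Uox 5 of 7 were higher, with a median log2 ratio of 0.98.

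**Figure D3:**
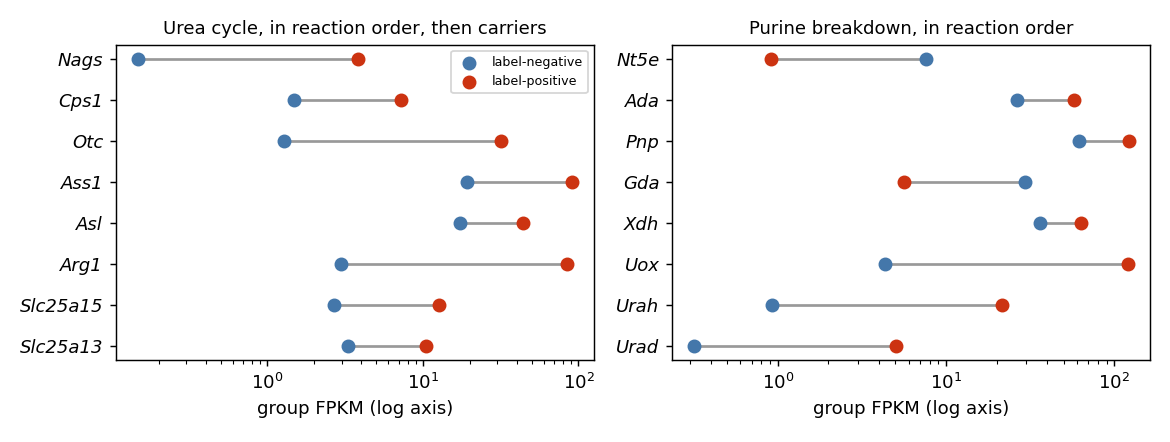
Group FPKM (log axes) of the urea cycle genes (left) and the purine breakdown genes (right) in label-negative (blue) and label-positive (red) qHSCs, 1 value for each group with no error. The lines of Nags, Otc and Arg1 and of Uox, Urah and Urad span log2 ratios of 3.99 or more, while those of Asl, Ada, Pnp and Xdh are short, from 0.80 to 1.35, and Nt5e and Gda run the other way.

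Mup20 belongs to a cluster of closely related genes, and 11 of the 26 listed major urinary protein genes and pseudogenes had a row. All 11 had their higher level in label-positive cells, with a median log2 ratio of 4.16 and a range of 1.93 to 5.47. Without Mup20 the median of the other 10 was 4.01. Mup3 was the most abundant, with 7.99 in label-negative cells and 142 in label-positive ones, and Mup21, with 0.187 and 8.31, had the highest ratio. Transcripts of 7 of these 11 genes are at least 97% identical to those of other genes, over at least 90% of the length of either transcript. The counting could thus have divided reads between copies, and the levels of these genes are uncertain. For Mup1, with 0.806 and 17.7, 15 other genes reach that identity. Mup20 is more distinct, since its closest relative, Mup4, is 90.6% identical over the whole transcript, and no gene reached 97%.

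Mup20 and Car3 are among the liver genes that are higher in male than in female mice. Of 16 such genes 12 had a row and all 12 were above their label-negative level. Their median log2 ratio was 4.26, or 3.64 over the 10 without Mup20 and Car3. Mup1 and Mup21 are counted here as well as among the major urinary proteins. Elovl3, a fatty acid elongase, had 0.543 and 13.2, and Cyp4a12a had 0.0884 and 1.54. Of 21 genes higher in female liver 4 had a row, 3 of them higher in label-positive cells, led by Fmo1 with 41.2 and 107. Both fractions came from the same 3 animals, so these values bear on the fractions and do not settle which sex the animals were.

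Of the carbonic anhydrase genes 5 of 16 had a row, and 4 were higher in label-positive cells, or 3 of 4 without Car3. Car5a, the mitochondrial form that supplies bicarbonate to the urea cycle in liver, had 0.846 in label-negative cells and 9.79 in label-positive ones, a log2 ratio of 3.53. Car8, a form without enzyme activity, had 42.2 and 119 (1.49), and Car13 had 1.69 and 4.39 (1.38). Car12, a membrane form, had 0.727 and 0.0710. Car3 exceeded every other carbonic anhydrase with a row in label-positive cells, whereas in label-negative cells Car8 was above it.

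Because Car3 is also abundant in fat and muscle, markers of both were read beside it. The muscle list holds mainly genes of fast fibres, so it says little about slow muscle, to which Car3 belongs. Of 14 adipocyte genes 2 had a row, Fabp4, which endothelium also expresses, with 70.2 and 133, and Pck1, which hepatocytes also express, with 0.933 and 20.1. Adipoq, Cfd, Plin1 and Lep had no row. Of 12 skeletal muscle genes 3 had a row, 2 of them higher in label-positive cells (Ckm with 0.112 and 0.778, Pvalb with 0.162 and 0.453) and Tnni2 lower (2.57 and 1.23), and their summed FPKM was 2.85 in label-negative cells and 2.47 in label-positive ones. For Arg1, the list of alternatively activated macrophages had 7 of 10 genes with a row, and 5 were higher in label-positive cells. Besides Arg1 these included Mrc1 (268 and 791) and Cd163 (2.66 and 8.56), while Chil3 (81.4 and 5.24) and Clec10a (12.4 and 3.63) were higher in label-negative cells. Retnla had no row. The part of these cell types in the levels of Car3 and Arg1 was not tested.

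Alb was set beside the other plasma proteins that hepatocytes secrete. Of 47 listed genes 34 had a row, and 33 were higher in label-positive cells, with a median log2 ratio of 2.27. Without Alb 33 had a row, with a median of 2.29, and their log2 ratio was below 1 in 1, between 1 and 2 in 14, between 2 and 3 in 13, between 3 and 4 in 4 and at least 4 in 1. Apoc1 and Apoa2, apolipoproteins of circulating lipid particles, were the other most abundant in label-positive cells, with 37.2 and 381 and with 38.3 and 298. Rbp4, the plasma carrier of vitamin A, had 6.10 and 55.5, and Serpina1e, an antitrypsin, had 3.10 and 49.7, the highest ratio of the list.

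Some secreted proteins had ratios as low as that of Alb. Fga and Fgb, chains of fibrinogen, had log2 ratios of 1.19 and 1.26, Hpx, which binds haem, 1.31, and Ahsg, or fetuin A, 1.39. Hp, the haemoglobin binding haptoglobin, which neutrophils also make, was the exception in direction, with 79.8 in label-negative cells and 32.1 in label-positive ones. Of the albumin gene family Gc, the vitamin D binding protein, had 9.78 and 54.4, and Afp and Afm had no row. Apob, Trf and Serpinc1 had no row either. Among the 32 urea cycle and amino acid enzymes other than Arg1 with a row, 10 had a log2 ratio of at least 4 and 6 one between 1 and 2.

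Transcription factors of hepatocytes were mostly low but went the same way. Of 15 listed 12 had a row and each of the 12 was above its label-negative level, with a median log2 ratio of 2.41. Hnf4a, a main regulator of hepatocyte genes, had 1.10 in label-negative cells and 13.0 in label-positive ones, and Foxa3 had 0.164 and 3.35. The most abundant were Cebpa, which myeloid cells also express, with 20.2 and 39.5, and Nr5a2, with 6.82 and 24.8. In all 22 of 29 listed hepatocyte enzymes, transporters and receptors had a row, and all 22 were above their label-negative level, with a median log2 ratio of 3.11. Tat is counted in this list as well as among the amino acid enzymes. Among them Asgr1, a receptor of the hepatocyte surface, had 0.955 and 6.19.

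Arg1 is a gene of hepatocytes near the portal tract and Car3 one of those near the central vein. Of 12 periportal genes 11 had a row and all 11 had their higher level in label-positive cells. Their median log2 ratio was 2.29, or 2.26 over the 10 without Arg1. All 11 were already counted above among urea cycle genes, amino acid enzymes or hepatocyte enzymes, so they add no new genes. Of 15 pericentral genes 10 had a row and 9 were higher, with a median of 1.57. Without Car3 the median was 1.52 over 9 genes, of which 8 were higher. Some of these, such as Glul and Cyp2e1, were counted above too. Of all rows 50.4% were higher in label-positive cells. Hal, a periportal enzyme that breaks down histidine, had 2.39 and 12.3, and Cyp2e1, a pericentral cytochrome, had 4.54 and 13.0. Axin2, a Wnt target expressed in many cells, was the exception, with 6.05 and 1.52. A difference between the zones was not tested.

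**Figure D4:**
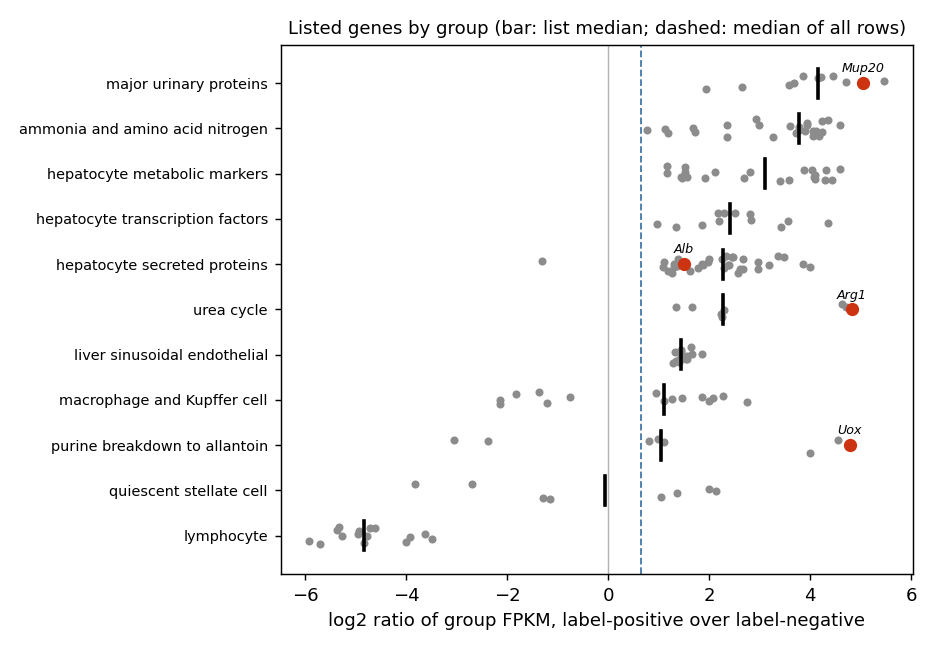
Log2 ratio of group FPKM, label-positive over label-negative, for each listed gene with a row (points), with the list median (black bars), the median of all rows at 0.64 (dashed line) and 4 of the 5 genes in red (Car3 is in none of the lists drawn). The dashed line lies among the smallest ratios of the rows higher in label-positive cells. The upper 6 lists, from major urinary proteins to urea cycle, have medians of 2.27 to 4.16, purine breakdown with Uox has 1.05, sinusoidal endothelial genes sit tightly around 1.45, and lymphocyte genes lie at -5.92 to -3.49.

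Genes of other cell types differed between the fractions as well. All 15 sinusoidal endothelial genes were higher in label-positive cells, with log2 ratios of 1.28 to 1.86 and a summed FPKM of 5361 in label-negative cells and 14504 in label-positive ones. All 15 lymphocyte genes were higher in label-negative cells, with a summed FPKM of 1815 and 86.1. The summed FPKM of the 34 secreted hepatocyte genes was 406 and 1775. Of 18 macrophage genes 15 had a row, 9 higher in label-positive and 6 higher in label-negative cells, with a summed FPKM of 2170 and 1326. Clec4f, a Kupffer cell gene, had 34.2 and 166, and Lyz2, a lysozyme of myeloid cells, had 1283 and 289. Lyz2 alone set the direction of the macrophage sum, which without it was higher in label-positive cells. Of 11 cholangiocyte genes 3 had a row, with a summed FPKM of 27.7 and 74.1, and none of 11 erythroid genes had one. No listed gene with a row was at 0 in either fraction. The part of any of these cell types in the levels of the 5 genes was not tested. The log2 ratio of Alb lay within the range of the endothelial genes, as did those of secreted proteins such as Ahsg and Hpx. Those of Arg1, Uox, Car3 and Mup20 exceeded every endothelial gene of the list. Because these genes were chosen on this ratio, nothing is read from that.

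Markers of the labelled cell type were read in the same way. Of 14 genes of quiescent stellate cells 8 had a row, 4 higher in each fraction, with a summed FPKM of 147 in label-negative cells and 107 in label-positive ones. Pdgfrb, a receptor by which stellate cells are recognised, had 0.905 and 0.370, Dcn, a matrix proteoglycan, had 109 and 49.0, and Hgf, a growth factor for hepatocytes, had 17.0 and 44.1. The lower sum in label-positive cells came from Dcn alone, and without Dcn the sum was higher there. Lrat, Reln, Des, Hand2 and Gfap had no row. In label-positive cells Alb, Car3, Uox, Mup20 and Arg1 stood above every stellate cell gene of the list with a row. In label-negative cells Alb alone was near Dcn. Car3, Uox, Mup20 and Arg1 were chosen on this contrast, and stellate cell genes without a row may be abundant but unchanged. These orders therefore do not compare the amount of RNA from hepatocytes and stellate cells.

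In activated cells the question was whether loss of WT1 changed these genes. Car3 was the 1 gene of the 5 with a row, in GFP-intermediate aHSCs, where its group FPKM was 1.97 in control cells and 14.2 after deletion, 7.24 times higher (log2 ratio 2.86). It was rank 20 by log2 ratio of the 156 rows higher after deletion, which were 37.2% of the 419 rows with a gene name. Each group had 2 samples, and no spread is known. FPKM values were normalised separately in each table, so these levels cannot be set against those of qHSCs.

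Few other hepatocyte genes had a row after WT1 deletion. In GFP-intermediate cells the secreted proteins, urea cycle, amino acid enzymes and major urinary proteins had 0 rows. Cyp7b1, an oxysterol hydroxylase that is higher in male liver, had 19.5 in control cells and 66.7 after deletion, and Cebpa had 79.5 and 24.2. Lipe, the hormone-sensitive lipase of adipocytes, had 8.98 and 21.5 and was the 1 of 14 adipocyte genes with a row. Car4, a membrane carbonic anhydrase, had 0.339 in control cells and was listed at 0 after deletion. Of the 419 rows with a gene name in GFP-intermediate cells, 263 were lower after deletion. Among macrophage genes in these cells 11 rows were called and all 11 were lower after deletion, among them Clec4f with 174 and 43.8. Their part in the level of Car3 was not tested.

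In GFP-high aHSCs 77.2% of the 123 rows with a gene name were higher after WT1 deletion. Cps1, the enzyme that feeds ammonia into the urea cycle, had 0.233 in control cells and 1.20 after deletion, 5.16 times higher (log2 ratio 2.37, rank 53 of 95 rows that were higher). Fga had 2.65 and 6.39, 2.41 times higher (log2 ratio 1.27, rank 89). These were the only rows of the urea cycle and secreted protein lists there.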

How the data were processed

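RNA of sorted HSCs was sequenced on an Illumina HiSeq. The authors mapped reads with bowtie 2 and tested differences with Cuffdiff2, and the submitters' processing notes list TopHat2 2.0.3, Cufflinks 2.0.1, DESeq2 and the builds mm9 and mm10 without a role. The deposited values are FPKM, 1 for each group. The comparison tables also hold the authors' fold changes, p-values and q-values, which were not used beyond checking that 0 rows with a gene name reached a q-value of 0.05. All 5716 rows had equal FPKM in both quiescent tables.

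Log2 ratios were computed from group FPKM without a pseudocount, and rows with 0 in 1 group were kept in ranks and left out of medians. No test was run, because no replicate values were used, and the other settings tried are in the closing section. The genes and lists were chosen with earlier results of these data known. Named genes were the 5 genes, genes of the lists (by abundance or ratio, or to show a pathway step), and the 3 nearest rows. Fabp1 and Cdo1 were named as the next ranks. Values of some listed genes are not reported here. The functions were checked on simulated data. Transcripts of GENCODE vM21 were compared with blastn 2.17.0, and promoters were those of RefSeq (GRCm38.p6). Python 3.11.15, pandas 2.3.3, numpy 2.4.6 and matplotlib 3.10.9 were used.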

Additional observations from a re-analysis of the deposited data

How the results depend on the processing

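No paired analysis was possible because the tables hold 1 value for each group and none for each animal. With a pseudocount of 1 the log2 ratios were 4.60 for Mup20, 4.43 for Arg1, 4.50 for Uox, 4.55 for Car3 and 1.49 for Alb, and with 0.1 they were 4.99, 4.78, 4.76, 4.64 and 1.49. Scaled so that the median log2 ratio of all rows, 0.64, became 0, they were 4.41, 4.19, 4.15, 4.01 and 0.86. The rows are only those called different, so that median need not measure a shift between the libraries. With rows below an FPKM of 1 in both fractions left out, the ranks on the log2 ratio were 6 for Mup20, 10 for Arg1, 11 for Uox, 18 for Car3 and 822 for Alb. A pseudocount added to both fractions cannot change a direction. The scaling, which lowers each log2 ratio by 0.64, could not change one here either. No listed gene that was higher in label-positive cells had a ratio below 0.77. Of 84 list counts recomputed, 82 were within 1.5 times the number reported. The others were 1 adipocyte gene at a log2 ratio of at least 1 and 0 skeletal muscle genes at an FPKM of at least 1. No row of the quiescent table named more than 1 gene, so that alternative, which gave 21 of the 84 counts, could change nothing. The scaling gave another 21, and it could change none of them. Depth and spread between animals are unknown and limit every value.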

Other observations

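Outside the lists, other liver genes were also at least 16-fold higher in label-positive cells, most of those named here with ratios below that of Car3. In label-negative qHSCs 71 rows were above 0 and at least 16-fold lower than in label-positive cells, and 69 of them had an FPKM of at least 1 in label-positive cells. Of these 69, 32 belonged to a list and 37 to none. Genes were picked for this paragraph with their values in view. Saa1 and Saa2, acute phase proteins secreted by liver, had an FPKM of 2.09 and 1.89 in label-negative and 43.4 and 48.1 in label-positive cells. Baat, which joins bile acids to amino acids, had 0.709 and 15.9, Hao1, a peroxisomal glycolate oxidase, had 0.805 and 17.6, and Glyat, which joins glycine to acyl groups, had 0.712 and 17.3. Further enzymes of amino acid and amine breakdown were also among them, with 0.274 and 8.61 for Aadat and 0.585 and 12.4 for Agmat. Cdo1, at 148, was the second most abundant of the 37 in label-positive cells after Gsta3, a glutathione transferase, at 175.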
